A study of Rattus norvegicus with 34 samples.

Results

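Aldo-keto reductases were followed by their transcripts in the livers of 34 ageing male rats of 2 inbred strains, with an array for each animal. The genes described are Akr1b7, Akr1b8, Akr1c3, Akr1d1, Akr1a1, Akr7a2 and Akr7a3. They were taken by gene symbol, with earlier results of these data known. Each was read from the probe set with the highest mean signal in the strain. All 7 had values in F344 rats, among 11943 genes, and 6 had values in Brown Norway rats, among 11984 genes. Akr1b7 was not analysed here in Brown Norway rats. All 7 and all 6 passed the filter on low signals described below. The F344 rats were undosed and 6, 11, 18 or 24 months old, with 4 rats at each age, and were kept at their supplier until 1 week before necropsy. The Brown Norway rats were housed individually and were 4, 12 or 24 months old. At each of their ages 3 rats received toluene, a solvent, at 1 g/kg in corn oil by gavage and were killed 4 h later, and 3 were controls labelled as untreated. The labels mention no corn oil for the controls, so solvent and vehicle cannot be told apart. The study asked how enzymes that handle foreign compounds change as male rats age.

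Aldo-keto reductases are soluble enzymes that use NADPH to reduce aldehydes and ketones to alcohols. In the liver they take part in the making of bile acids, in the inactivation of steroid hormones and in the removal of reactive aldehydes from foods, toxins and oxidised lipids. The Akr1b enzymes act on sugars and lipid aldehydes, the Akr1c enzymes on the keto groups of steroids, Akr1d1 on the steroid A ring, and the Akr7a enzymes on dialdehydes such as the one formed from aflatoxin.

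The values are linear probe set signals of an Affymetrix rat array. Signals under 32 were raised to that floor before the log2 step. Genes above the floor on at least 4 F344 or 3 Brown Norway arrays were tested, and a change passed at an adjusted p under 0.05. P-values within a strain come from limma. Their Benjamini-Hochberg adjustment was over the 9206 genes tested in F344 or the 8584 in Brown Norway rats, except where an altered fit is named. P-values for the difference between strains come from a t test on the 2 limma estimates, adjusted likewise over 7956 genes. Median signal was 44.9 to 47.1 on the F344 and 35.6 to 38.3 on the Brown Norway arrays, so levels are compared within a strain only. Precision is limited by the small number of arrays. As a measure of RNA quality, the GAPDH ratio (signal at the 3' end over that at the 5' end of the transcript) lay between 0.774 and 0.944 in Brown Norway and between 1.31 and 7.33 in F344 livers. It exceeded 2.5 on 5 F344 arrays, 2 each at 6 and 11 months and 1 at 18 months, and reached no more than 2.17 at 24 months. The 9 hepatocyte markers with values were above the floor in every liver of all 10 groups. In whole liver, fewer cells of a type and less RNA per cell cannot be told apart.

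The family changed most between F344 rats of 24 months and the younger ages, in opposite directions for different members. Between 6 and 24 months Akr1b7 and Akr1b8 rose and Akr1c3 and Akr7a2 fell, while Akr1d1, Akr1a1 and Akr7a3 did not pass. The 2 that rose compare with 4.43% of all genes tested and the 2 that fell with 2.97%, together 7.40%, and the groups of the same 4 did not overlap, against 15.4% of all genes. The median change of the 7 was -0.34 on the log2 scale and that of all genes -0.01. Against 11 months 1 member rose, Akr1b7, and 1 fell, Akr1c3, beside 2.60% and 2.32% of all genes, 4.92% in all. Both also passed against 18 months, beside 0.880% of all genes in each direction, 1.76% in all. Between 6 and 18 months Akr1c3 alone passed, as a fall, beside 0.163% of all genes that fell and 1.08% that passed. No member passed between 6 and 11 months, where 0% of all genes did. There 0 of 7 had an unadjusted p under 0.05 in limma, beside 3.88% of all genes. Nor did one pass between 11 and 18 months, where 0.293% of all genes did, and 1 of 7 had an unadjusted p under 0.05, beside 11.1%. Groups did not overlap for 1 member between 6 and 11 months (2.06% of all genes), 1 between 6 and 18 (6.69%), 0 between 11 and 18 (4.69%), 3 between 11 and 24 (12.2%) and 3 between 18 and 24 months (7.68%).

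**Figure D1:**
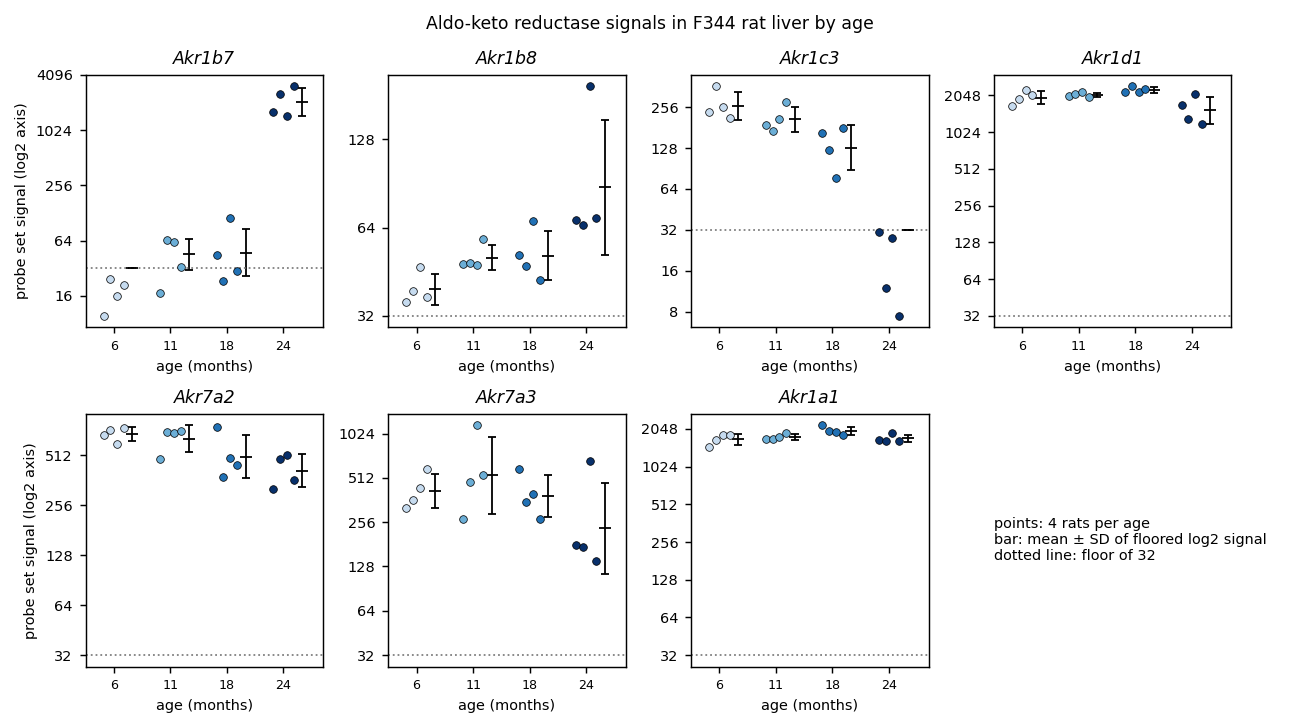
Signals of the 7 aldo-keto reductases in single F344 livers (points, 4 rats per age) on log2 axes against age in months, with the mean ± SD of the floored log2 signals (bars) and the floor of 32 (dotted lines). Akr1b7 is near or under the floor up to 18 months and at 1465 to 3104 at 24 months, and Akr1c3 is under the floor in all 4 livers of 24 months.

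The upstream sequences of the members that changed most are shown because Akr1b7 and Akr1b8 are neighbours on chromosome 4 and Akr1c3 lies in another cluster of the family. On the GRCr8 assembly the order on chromosome 4 is Akr1b1, Akr1b8, Akr1b10, Akr1b7 and, after 19 other protein-coding genes, Akr1d1, with 0 protein-coding genes between the first 4. Akr1c3 is the ninth of 11 family genes in a row on chromosome 17, and Akr7a2 and Akr7a3 are adjacent on chromosome 5, where Akr1a1 lies 399 protein-coding genes away. RefSeq promoter entries matched 6 of the 7 members by symbol. The 250 bases before the start of transcription are given for 3 of them, all on the plus strand, at chr4:64043720-64043969 for Akr1b7, chr4:63964171-63964420 for Akr1b8 and chr17:71020634-71020883 for Akr1c3. Capitals mark the only match, on either strand and in any of the 6, to the motifs searched.
Akr1b7: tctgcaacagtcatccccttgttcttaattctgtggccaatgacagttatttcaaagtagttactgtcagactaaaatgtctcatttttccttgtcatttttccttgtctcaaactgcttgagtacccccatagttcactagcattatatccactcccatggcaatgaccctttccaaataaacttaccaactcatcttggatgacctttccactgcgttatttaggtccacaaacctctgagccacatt
Akr1b8: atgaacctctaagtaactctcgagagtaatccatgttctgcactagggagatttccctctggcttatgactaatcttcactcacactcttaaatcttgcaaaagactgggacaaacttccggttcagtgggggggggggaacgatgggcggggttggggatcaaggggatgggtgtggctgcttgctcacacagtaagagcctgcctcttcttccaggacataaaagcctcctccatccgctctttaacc
Akr1c3: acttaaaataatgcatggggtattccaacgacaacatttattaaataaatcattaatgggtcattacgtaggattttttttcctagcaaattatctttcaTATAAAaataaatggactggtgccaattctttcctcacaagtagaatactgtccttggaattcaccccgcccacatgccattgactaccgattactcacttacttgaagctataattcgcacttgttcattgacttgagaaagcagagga
The motifs were the TATA box TATAAA, the STAT5-type palindrome TTCNNNGAA and the core of the antioxidant response element TGACNNNGC, which do not contain one another. They occur in 12.9%, 7.67% and 10.1% of 33469 windows of 250 bases before RefSeq starts. In Akr1c3 the match lies 150 to 145 bases before the start. A match describes the letters only, and the absence of one says only that these letters are not in this window.

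Akr1b7, first described as a protein of the mouse vas deferens that reduces lipid and steroid-derived aldehydes, rose from near or under the floor to a high signal in the oldest F344 livers. At 6 months its signals were 9.72, 24.4, 16.0 and 21.3, all under the floor. At 11 months they were 17.2, 64.5, 62.5 and 33.4, and at 18 months 44.1, 23.0, 113 and 29.8. At 24 months they were 1623, 2539.7, 1465 and 3104. Every liver of 24 months was far above every younger one, while the 3 younger ages overlapped. The rise from 6 to 24 months was at least 65.0-fold (log2 fold change 6.02, SE 0.36, adjusted p = 3.03e-08), with all livers of 6 months under the floor. On floored log2 signals the rise was 45.7-fold from 11 months (adjusted p = 8.82e-08), with 1 of 4 livers under the floor, and 43.8-fold from 18 months (adjusted p = 1.4e-07), with 2 of 4. The lowest of the 4 old livers, at 1465, was higher than the highest of 18 months, at 113. Between 6 and 18 months the log2 change was 0.57 (adjusted p = 0.599). Without the 5 arrays of high GAPDH ratio the log2 changes to 24 months were 5.51 from 11 months (adjusted p = 0.000182) and 5.26 from 18 months (adjusted p = 0.000121).

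Over the 16 F344 arrays the genes whose signal was most like that of Akr1b7 were Cux2, a transcription factor of female-type expression in rodent liver (Pearson r 0.98), Trim24, a nuclear receptor cofactor (0.98), and A1bg, a plasma glycoprotein that is female-specific in rat liver (0.97). These arrays share their age groups, and the livers of 24 months stand apart for all 4 genes, so the coefficients describe that step above all. Between 18 and 24 months Cux2 rose 4.22-fold and Trim24 8.91-fold. Both were picked by their likeness to Akr1b7 on these arrays, so a rise in that interval is not separate evidence. Of the 12 measured genes in a list of female-pattern liver genes, 8 rose and 2 fell between 6 and 24 months, with a median log2 change of 2.09. Of the 11 in the male-pattern list 0 rose and 9 fell, with a median of -4.15. Of all genes tested 4.43% rose and 2.97% fell. Both lists were chosen with such results of these data known.

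Akr1b8, an aldose reductase-like enzyme known in the mouse as a protein induced by fibroblast growth factor, rose modestly with age from a low signal. At 6 months it had signals of 35.6, 38.9, 46.8 and 37.1, and at 11 months of 48.1, 48.3, 47.8 and 58.4. At 18 months they were 51.5, 47.3, 67.2 and 42.5, and at 24 months 67.8, 65.2, 195 and 69.2. All livers of 24 months lay above all of 6 and 11 months, 1 of 18 months reached into their range, and the third liver of 24 months stood far above the others of its age. The rise from 6 to 24 months was 2.23-fold (log2 fold change 1.16, SE 0.27, adjusted p = 0.0142). Against 11 months it was 0.80 (adjusted p = 0.1) and against 18 months 0.78 (adjusted p = 0.201) on the log2 scale, neither of which passed. The call was lost when only the 2 groups compared entered the fit (adjusted p = 0.0674) and without the arrays of high GAPDH ratio (log2 change 1.21, adjusted p = 0.1). Most like Akr1b8 over the 16 arrays were Slc34a2, a phosphate transporter (r 0.88), Gstp1, a glutathione transferase that marks preneoplastic liver foci (0.83), and Psat1, an enzyme of serine synthesis (0.81). The third liver of 24 months, at 195, weighs heavily in these coefficients.

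The other Akr1b genes gave little more. Akr1b1, the aldose reductase of the sorbitol pathway, had signals of 137 to 145 at 24 months and 91.9 to 127 at 6 months, which did not overlap, but its log2 change of 0.42 did not pass (adjusted p = 0.108). Both probe sets of Akr1b10 were at or under the floor on nearly all arrays and the gene was not tested. One of them read 11.7 to 30.2 in the livers of 24 months and 1.46 to 3.60 at 6 months, all under the floor.

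Akr1c3, listed by RefSeq in the rat under the older symbol Akr1c18, is a hydroxysteroid dehydrogenase that inactivates progesterone, and it was lower at 18 and 24 than at 6 months in F344 rats. Its signals were 235, 367, 258 and 212 at 6 months and 188, 171, 209 and 279.5 at 11 months. They were 165, 124, 76.6 and 179 at 18 months and 31.0, 11.9, 28.1 and 7.45 at 24 months. All 4 livers of 24 months were under the floor and all younger ones above it, and the livers of 18 months did not overlap those of 6 months. The log2 change was -0.33 from 6 to 11 months (adjusted p = 1) and -0.69 from 11 to 18 months (adjusted p = 0.242), and both pairs of groups overlapped. From 6 to 18 months the fall was 2.02-fold (log2 fold change -1.02, SE 0.23, adjusted p = 0.0462). From 18 to 24 months it was at least 4.04-fold (log2 fold change -2.01, adjusted p = 0.000101) and from 11 to 24 months at least 6.51-fold (log2 fold change -2.70, adjusted p = 2.38e-06). From 6 to 24 months it was at least 8.18-fold (log2 fold change -3.03, SE 0.23, adjusted p = 4.36e-07). Without the arrays of high GAPDH ratio the fall from 6 to 24 months still passed (log2 fold change -3.12, adjusted p = 0.000327). The earlier fall, from 6 to 18 months, did not (log2 fold change -1.27, adjusted p = 0.0928), and it also failed without replicate 2 or 3 of 18 months or replicate 1, 2 or 3 of 6 months (adjusted p 0.0795 to 0.164).

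Most like Akr1c3 over the 16 F344 arrays were Dhrs7l1, a short-chain dehydrogenase (r 0.97), Hao2, an oxidase of hydroxy acids (0.96), and Hsd3b5, a male-specific steroid dehydrogenase of rat liver (0.95). Here too the livers of 24 months set the coefficient. The 5 other tested Akr1c genes were Akr1c1, Akr1c13, Akr1c14, Akr1c15 and Akr1c19, and none passed in any comparison in limma. Akr1c13 came nearest, with 1361 to 1657 at 24 months and 1713 to 2333 at 11 months, which did not overlap (log2 fold change -0.47, adjusted p = 0.0717). Akr1c14, a dehydrogenase of androgens next to Akr1c3 in the gene order, had 3 probe sets. The log2 changes from 6 to 24 months were 0.15, 0.41 and 0.26, each with an adjusted p of at least 0.769 when every probe set was tested on its own. Signals of near-identical Akr1c transcripts may not be kept apart by these probe sets.

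Of the wider family 21 other genes were listed, 11 had a probe set and 7 were tested in each strain, the 5 named and Akr1b1 and Akr1e2. From 6 to 24 months in F344 rats 0 of 7 passed in limma (7.40% of all genes), and the median log2 change was 0.31. An unadjusted p under 0.05 was held by 2 of 7 (20.4% of all genes). The potassium channel subunits Kcnab1, Kcnab2 and Kcnab3, which share the fold, were not tested.

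**Figure D2:**
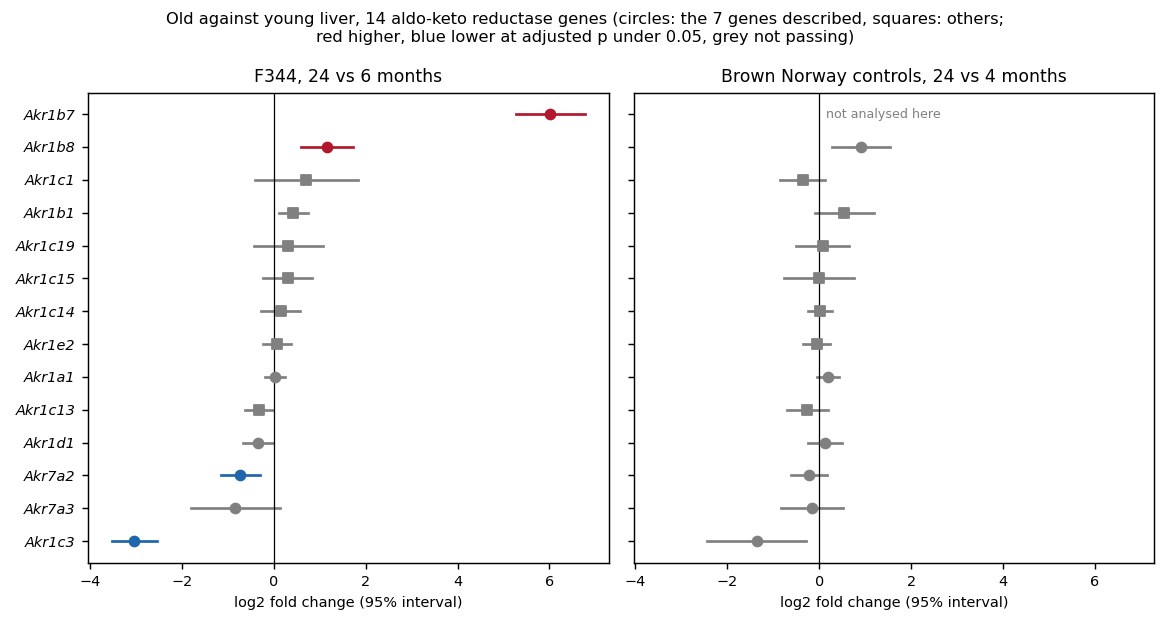
Log2 fold change with its 95% interval of 14 aldo-keto reductase genes in old against young liver, for F344 rats of 24 against 6 months (left) and Brown Norway controls of 24 against 4 months (right). Circles are the 7 genes described and squares the others, red or blue marks a change that passed, and only Akr1b7, Akr1b8, Akr1c3 and Akr7a2 in F344 rats are coloured.

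Akr1d1 reduces the double bond of the steroid A ring, a step that gives bile acids their bent shape. Its signals were 1672, 1901, 2251 and 2045 at 6 months and 2041, 2102, 2176 and 1968 at 11 months. They were 2176, 2444, 2166 and 2317 at 18 months and 1707, 1321, 2104 and 1192 at 24 months. All livers of 24 months lay below all of 18 months, but 2 of them lay within the range of 6 months. The log2 change was -0.56 against 18 months (SE 0.15, adjusted p = 0.0771), -0.42 against 11 months (adjusted p = 0.116) and -0.34 against 6 months (95% interval -0.66 to -0.03, adjusted p = 0.2), none of which passed. A second probe set of the gene gave -0.57, -0.50 and -0.62 in the same order. These results depended in part on the third liver of 24 months, at 2104. Without it the log2 changes were -0.71 (adjusted p = 0.00799), -0.57 (adjusted p = 0.02) and -0.49 (adjusted p = 0.0355). With it kept, the change against 18 months passed with a robust variance trend (adjusted p = 0.0498) or array quality weights (adjusted p = 0.0213). Most like Akr1d1 were Cyp2c13, a male-specific cytochrome P450 (r 0.89), Cdh17, a cadherin (0.87), and Hsd11b1, which activates glucocorticoids (0.84).

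Among the other genes of bile acid synthesis 2 of 11 tested fell from 6 to 24 months (2.97% of all genes) and 0 rose (4.43%). Their median log2 change was -0.50. Amacr, which turns the side chain of bile acid intermediates, fell 1.86-fold from 4228 ± 720.2 to 2268 ± 377 (SD, n = 4, adjusted p = 0.00219). Baat, which joins bile acids to amino acids, fell 1.33-fold (adjusted p = 0.0142). Acox2 (log2 change -0.79, adjusted p = 0.0536) and Hsd3b7 (-0.84, adjusted p = 0.0712) did not pass. For the reduction of the steroid A ring and of steroid keto groups 11 genes were tested. Of these 7 fell (2.97% of all genes) and 0 rose (4.43%), with a median of -0.41. They included Hsd3b5 (log2 fold change -5.81), Hsd11b1, which fell 2.05-fold (adjusted p = 0.00105), Rdh16, 3.91-fold (adjusted p = 0.00168), and Hsd17b10, 1.33-fold (adjusted p = 0.018). The count of 7 became 4 with the 5 arrays of high GAPDH ratio left out, 4 without replicate 1 or 2 of 24 months or replicate 2 or 4 of 6 months, and 3 without replicate 3 of 6 months. That of bile acid synthesis was 1 without replicate 1 of 24 months and 4 with array quality weights or with only the groups compared. Both lists were chosen with earlier results of these data known.

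Akr7a2 and Akr7a3 reduce the dialdehyde of aflatoxin, and Akr7a2 also reduces succinic semialdehyde. Akr7a2 had signals of 675, 721, 599 and 744 at 6 months and 487, 701, 697 and 717 at 11 months. They were 756, 377, 493 and 446 at 18 months and 321, 488, 514 and 361 at 24 months. The livers of 24 months lay below all of 6 months, while those of 11 and 18 months spanned both. The fall from 6 to 24 months was 1.65-fold (log2 fold change -0.72, SE 0.20, adjusted p = 0.0383). This call was lost without replicate 1 or 4 of 24 months or without any of the 4 replicates of 6 months (adjusted p 0.057 to 0.135), and without the arrays of high GAPDH ratio (log2 fold change -0.83, adjusted p = 0.0998). Against 11 months the log2 change was -0.64 (adjusted p = 0.0824).

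Akr7a3, an aflatoxin aldehyde reductase that antioxidants induce in rat liver, varied widely among livers of one age. Its signals were 319, 361, 438 and 588 at 6 months and 268, 480.0, 1164 and 534 at 11 months. They were 585, 352, 396 and 268 at 18 months and 179, 174, 671 and 140.1 at 24 months. At 24 months 3 of 4 livers were below all of the younger ones and the third was above all but 1 of them. The log2 change from 6 to 24 months was -0.84 (95% interval -1.80 to 0.13, adjusted p = 0.327) and from 11 months -1.19 (adjusted p = 0.148). Without that liver they were -1.34 (adjusted p = 0.0404) and -1.70 (adjusted p = 0.0149). Most like Akr7a3 were Nr1i3, the nuclear receptor CAR (r 0.91), Ces1d, a carboxylesterase (0.87), and Rcan1, an inhibitor of calcineurin (0.86). Akr7a2 ran most closely with Sez6 (0.88), Mrpl14, a mitochondrial ribosomal protein (0.88), and Fmo1, a flavin monooxygenase (0.87).

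Of 19 tested targets of Nrf2, the factor that responds to reactive compounds, 4 rose from 6 to 24 months (4.43% of all genes). In that comparison 0 fell (2.97%), and the median log2 change was 0.13. Gstp1 rose 2.61-fold from 142 ± 14.1 to 387 ± 146 (SD, n = 4, adjusted p = 0.007). Gsta3, a glutathione transferase, rose 2.74-fold (adjusted p = 0.0197), Hmox1, which degrades haem, 2.10-fold (adjusted p = 0.011) and Nqo1, a quinone reductase, 1.86-fold (adjusted p = 0.0248). The count of 4 was 2 without replicate 1 of 6 months, with a floor 4 times as high or with no filter on low signals. From 11 to 24 months 1 target rose (2.60% of all genes) and 1 fell (2.32%), and from 18 to 24 months 0 passed (1.76%). Neither Akr7a gene rose. The list of Nrf2 targets was also chosen with earlier results of these data known.

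Akr1a1, the general aldehyde reductase that rodents also use to make vitamin C, varied little. Its signals ranged from 1475 to 1833 at 6 months, 1688 to 1893 at 11, 1823 to 2190.3 at 18 and 1653 to 1911 at 24 months, and all 4 ages overlapped their neighbours in order of level. The log2 change from 6 to 24 months was 0.03 (95% interval -0.19 to 0.24, adjusted p = 0.928). From 6 to 18 months it was 0.22 (adjusted p = 0.405). Most like it were Arhgap8, Vnn1, a pantetheinase, and Cidea, a lipid droplet protein, at r 0.85, 0.81 and 0.78. Of 24 other carbonyl and aldehyde enzymes tested 3 fell from 6 to 24 months (2.97% of all genes) and 0 rose (4.43%). The median log2 change was -0.06, and the count of 3 was 5 with array quality weights. This list too was chosen with earlier results of these data known. Dhrs3, which reduces retinal, fell 1.89-fold (adjusted p = 0.000397), Dcxr, a xylulose reductase, 1.65-fold (adjusted p = 0.0188) and Dhrs7, a short-chain dehydrogenase, 1.49-fold (adjusted p = 0.00976).

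One F344 liver of 24 months, singled out after its values were seen, differed from the other 3 in several members. Replicate 3 had the highest signal of its age in 5 of the 6 members above the floor, which were Akr1b8, Akr1d1, Akr1a1, Akr7a2 and Akr7a3, and the lowest in Akr1b7. On the log2 scale it stood above its group mean by 1.53 for Akr7a3, 1.15 for Akr1b8 and 0.45 for Akr1d1, and fell by 0.51 below it for Akr1b7. For Akr7a2 its lead was small, 514 against 488 in replicate 2. Single arrays of other groups also led several members. Replicate 4 of F344 rats of 11 months was highest in 4 of 7, and replicate 1 of dosed Brown Norway rats of 24 months in 4 of 6. Members read on one array are not separate evidence. Without replicate 3 of F344 rats of 24 months 6 of 7 members passed between 6 and 24 months, against 4 with it. Between 11 and 24 months 4 of 7 passed without it, against 2. The share of all genes passing without it is not given here, so these counts are not a result about the members.

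**Figure D3:**
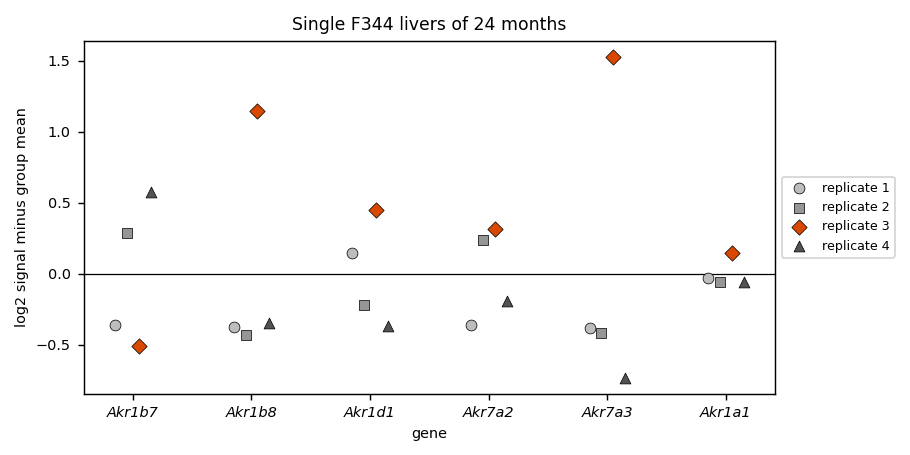
Log2 signal minus the mean of the 4 F344 livers of 24 months for the 6 members above the floor at that age, with a symbol for each rat. Replicate 3 (orange diamonds) is highest for 5 genes and lowest for Akr1b7.

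In Brown Norway rats no member passed in any comparison in limma. Some pairs of groups of Akr1c3, Akr1b8, Akr7a3, Akr1a1 and Akr1d1 did not overlap. Between controls of 4 and 24 months 0 of 6 passed, beside 0.245% of all genes, and 2 of 6 had an unadjusted p under 0.05, beside 11.6%. Between 12 and 24 months 0 of 6 passed (0.0233% of all genes) and 1 had such an unadjusted p (14.6%), and between 4 and 12 months 0 passed (0%) and 0 had one (3.90%). For toluene against control 0 of 6 passed at 4 months (0.0233% of all genes), at 12 months (0.0349%), at 24 months (0.0582%) and averaged over the 3 ages (0.0699%). Unadjusted p-values under 0.05 were held by 0 of 6 at 4 months (3.16% of all genes), 1 at 12 months (4.61%), 3 at 24 months (11.1%) and 0 in the average (5.24%). For age averaged over control and dosed rats 0 of 6 passed (0.850%) and 1 had an unadjusted p under 0.05 (10.8%). Groups of controls did not overlap for 3 of 6 members between 4 and 12 months (7.44% of all genes), 3 between 4 and 24 (12.8%) and 1 between 12 and 24 months (16.9%). Dosed and control rats did not overlap for 0 of 6 at 4 months (7.85%), 1 at 12 (7.62%) and 4 at 24 months (16.8%).

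**Figure D4:**
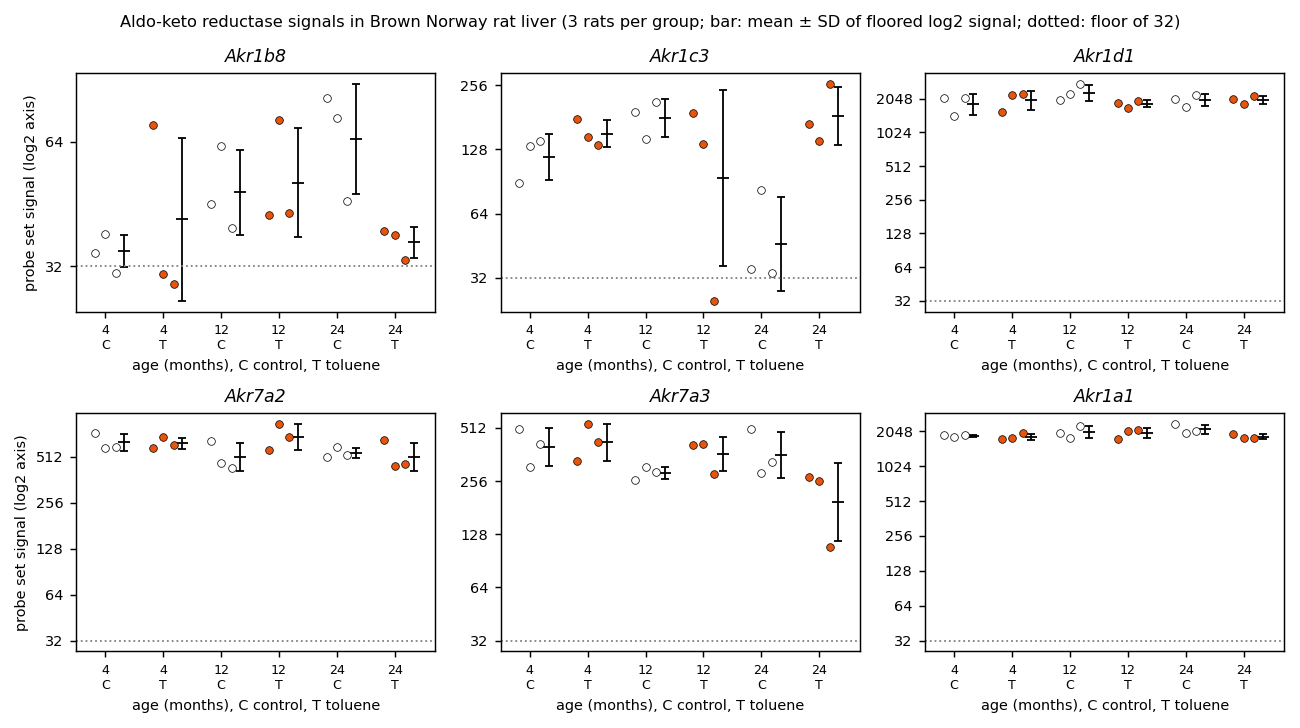
Signals of the 6 aldo-keto reductases with values in single Brown Norway livers (points, 3 rats per group) on log2 axes, controls open and toluene-dosed rats filled, with the mean ± SD of the floored log2 signals (bars) and the floor of 32 (dotted lines). At 24 months Akr1c3 is at 33.6 to 82.4 in controls and 141 to 259.8 in dosed rats, and Akr1b8 is higher in controls than in dosed rats.

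Akr1c3 was lowest in the old controls. Control signals were 88.7, 133 and 139.7 at 4 months, 191, 143 and 213 at 12 months and 35.2, 82.4 and 33.6 at 24 months. Dosed rats had 178, 146 and 135 at 4 months, 191, 136 and 24.9 at 12 months and 169, 141 and 259.8 at 24 months. The 3 old controls lay below all other controls, all old dosed rats lay above them, and 1 dosed rat of 12 months was lower still. The log2 change in controls was -1.97 from 12 to 24 months (SE 0.51, unadjusted p = 0.00142, adjusted p = 0.133) and -1.36 from 4 to 24 months (SE 0.51, adjusted p = 0.297). Dosed against control at 24 months it was 2.00 (SE 0.51, unadjusted p = 0.00127, adjusted p = 0.284). These 3 values share the same 3 old controls. Leaving out each of these in turn gave 1.77 to 2.42 for the dosed rats and adjusted p of 0.0632 to 0.717. The effect of toluene at 24 months minus that at 4 months was 1.63 (adjusted p = 0.97), in a comparison in which 0 of 6 members and 0.0116% of all genes passed and 3 of 6, beside 4.89% of all genes, had an unadjusted p under 0.05. Among dosed rats alone the change from 4 to 24 months was 0.27 (adjusted p = 1). At 12 months toluene gave -0.94 (adjusted p = 0.922), and -0.16 without the dosed rat at 24.9. Most like Akr1c3 over the 18 arrays were Elapor1 (r 0.91), Vsig10 (0.87) and Bhmt, a methyltransferase of betaine (0.87).

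Akr1b8 went the other way in the same animals. Control signals were 34.4, 38.2 and 30.9 at 4 months, 45.3, 62.6 and 39.7 at 12 months and 81.8, 73.1 and 46.0 at 24 months. Dosed rats had 70.2, 30.6 and 28.9, then 42.6, 72.3 and 43.0, and at 24 months 38.9, 38.0 and 33.2. The old controls lay above the young controls and above the old dosed rats without overlap. In controls the log2 change from 4 to 24 months was 0.90 (SE 0.30, unadjusted p = 0.00847, adjusted p = 0.22), and toluene at 24 months gave -0.83 (SE 0.30, unadjusted p = 0.014, adjusted p = 0.333), again over shared controls. Among dosed rats the change from 4 to 24 months was -0.18 (adjusted p = 1). Macrophage markers, 8 of 8 above the floor in each of these groups, summed to 1694 to 2112 in young controls, 3340 to 6272 in old controls and 2034 to 3226 in old dosed rats. Their part in the result was not tested. The genes most like Akr1b8 were Mgp, Dcn and Cd9 (r 0.82, 0.82 and 0.81), of which Mgp and Dcn are matrix genes.

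Akr7a3 had signals of 504, 308 and 415 in controls of 4 months, 260.0, 306 and 289.8 at 12 months and 504, 283 and 327 at 24 months. Dosed rats had 333, 537 and 424, then 407, 417 and 280.4, and at 24 months 269, 255 and 109. The old dosed rats lay below the old controls without overlap (log2 change -0.88, SE 0.32, unadjusted p = 0.014, adjusted p = 0.333), while at the younger ages the groups overlapped. Averaged over control and dosed rats the change from 4 to 24 months was -0.63 (unadjusted p = 0.0126, adjusted p = 0.266). Glul, the glutamine synthetase of cells around the central vein, was the gene most like it (r 0.74), then Lect2 (0.71) and Vnn1 (0.69).

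The other 3 members moved less. Akr7a2 lay between 435 and 841 on the 18 arrays, and its largest log2 difference from control was 0.44 in dosed rats of 12 months (unadjusted p = 0.0339, adjusted p = 0.922). Akr1d1 lay between 1426 and 2770.0, with a log2 change from 4 to 24 months in controls of 0.12 (95% interval -0.25 to 0.50). At 12 months its dosed rats, at 1703 to 1966, lay below the controls, at 2001 to 2770.0 (log2 change -0.33, adjusted p = 0.922). Akr1a1 lay between 1741 and 2366, with 0.19 (95% interval -0.05 to 0.43) from 4 to 24 months and -0.21 (95% interval -0.45 to 0.03) for toluene at 24 months. Neither of these pairs of groups overlapped. Akr1a1 ran with Tyrobp (r 0.74), Acot2 (0.73) and Lcp1 (0.72), of which Tyrobp and Lcp1 are myeloid genes. Akr1d1 ran with Kmt2d (0.77), Rnf144b (0.68) and Anks4b (0.65), and Akr7a2 with no gene above 0.55, the closest being Nectin2, Nr0b2 and Dhcr7. Of the other 7 family genes tested, Akr1c14 was higher in dosed than in control rats of 4 months without overlap (log2 change 0.35, unadjusted p = 0.0122, adjusted p = 1). Among the lists of bile acid, steroid, carbonyl and Nrf2 genes no member passed in Brown Norway rats in any comparison.

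The effects of old age in the 2 strains were set against each other over the 7956 genes tested in both with the same probe set, 6 members among them. The change from 6 to 24 months in F344 rats minus that from 4 to 24 months in Brown Norway controls passed for 0 of 6 members, with 0.478% of all genes passing, and 1 of 6 had an unadjusted p under 0.05, beside 8.57%. For Akr1c3 the difference was -1.67 (95% interval -2.83 to -0.51, adjusted p = 0.288), with all old F344 livers at the floor. For Akr7a2 it was -0.50 (95% interval -1.06 to 0.06), for Akr1d1 -0.47 (-0.94 to 0.01), for Akr7a3 -0.68 (-1.82 to 0.46), for Akr1b8 0.25 (-0.57 to 1.07) and for Akr1a1 -0.16 (-0.47 to 0.15). In Brown Norway controls the changes of Akr1c3 and Akr1b8 in old age had the sign of those in F344 rats but did not pass. Among dosed Brown Norway rats they were 0.27 and -0.18, of the opposite sign, and did not pass either. For Akr1b8 that sign rests on 1 dosed rat of 4 months at 70.2, the other 2 being under the floor. Hsd3b5, of the list for steroid reduction, did differ, with -5.27 (adjusted p = 5.44e-11). The young ages differ by 2 months between the strains.

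Markers of other cells were read beside the changes in F344 rats. From 6 to 24 months the summed signals of 8 macrophage markers went from 2097 to 2979 in the young to 3381 to 4519 in the old livers, without overlap. Those of lymphocytes went from 133 to 164, with 0 of 8 markers above the floor on all arrays, to 229 to 643, with 4 of 8. Those of cholangiocytes, bile duct cells, lay at 100.7 to 183 in the young and 239.9 to 285 in the old livers, also without overlap, with 1 of 4 markers above the floor on all arrays at both ages. That list's Epcam had 67.7 to 129 at 6 and 161 to 242 at 24 months, and 0 of its 2 tested genes passed in limma, 1 with an unadjusted p under 0.05. Those of preneoplastic foci overlapped, at 440 to 649 and 628 to 956, and of that list Gstp1 passed. Their part in the rise of Akr1b7 and Akr1b8 was not tested. Adrenal cortex, where Akr1b7 is abundant, had 1 listed gene with values, Cyp17a1. It read 21.0 to 43.4 in livers of 6 months and 22.4 to 39.5 in those of 24 months, around the floor. In Brown Norway controls the same gene read 1776 to 2644 at 4 months and 1818 to 3429 at 24 months. It therefore cannot serve here as a marker of adrenal tissue, whose part was not tested. In F344 livers of 6 and 24 months the 9 hepatocyte markers summed to 48008 to 49740 and 49256 to 50311.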

How the data were processed

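Liver RNA of 34 male rats was hybridised to Affymetrix rat full-genome arrays. As deposited, each value is a probe set's intensity on a linear scale. The submitters' processing notes name MAS5 and RMA, with no version, role or order, so how the signals were scaled is not given in the sources used here. Per-sample columns not used here numbered 0. Probe sets were named through the platform annotation, updated by Entrez identifier, and each gene was read from the probe set of highest mean log2 signal in the strain. Signals under 32 were set to 32 and log2 was taken, so folds against a group at the floor are lower bounds, written as at least that size. Group means were fitted within each strain with limma 3.58.1 in R 4.3.3, over all arrays of the strain. The p-values were adjusted by Benjamini-Hochberg over all genes tested. Strains were compared by the difference of their separate estimates. Replicates are separate animals, per the labels. The script was tested on simulated data. The genes described and all lists were chosen with earlier results of these data known. By rule, up to 4 genes of smallest p were named per list, and for each member the 3 genes of highest Pearson correlation, among genes with an SD of at least 0.5. The third F344 liver of 24 months was singled out after its values were seen. Alternatives took each probe set alone or their mean, other scaling, floors of 8 and of 4 times 32, a pseudocount, no filter, a variance trend, array weights, the compared groups alone, the GAPDH ratio as a covariate or 5 arrays of high ratio left out, dosed in place of control rats, and each array left out in turn.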

Additional observations from a re-analysis of the deposited data

Results flagged for a closer look

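For 26 sets of 4 F344 livers, each a member at an age with at least 1 liver above the floor, 6 held a liver far from the other 3 by Dixon's criterion, where chance gives about 1 in 20. In 3 of them it was replicate 3 of 24 months, at 195 for Akr1b8, 1911 for Akr1a1 and 671 for Akr7a3. The others were replicate 3 of 18 months, at 113 for Akr1b7, replicate 4 of 11 months, at 58.4 for Akr1b8, and replicate 1 of 11 months, at 487 for Akr7a2. The last of these had the highest GAPDH ratio, 7.33.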

How the results depend on the processing

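The number of members passing in each of the 16 comparisons was recomputed under 348 alternatives in all and stayed within 1.5 times in 328. Most of the 348 belonged to comparisons where the count was 0 throughout, so this share says little about stability. The share of all genes passing under each alternative is not given beside the counts below. Between F344 rats of 6 and 18 months the count of 1 became 0 with each probe set tested on its own, quantile normalization again, a floor of 8, a floor 4 times as high, no floor with a pseudocount of 32, no filter on low signals, only the groups compared, and with the 5 arrays of high GAPDH ratio left out, and it was 0 to 1 when each array was left out in turn. Between 6 and 24 months the count of 4 became 2 with a floor 4 times as high and 2 with those 5 arrays left out, and 3 to 6 when each array was left out. Between 11 and 24 months the count of 2 became 1 with the higher floor and 4 with array quality weights, and was 2 to 4 when each array was left out, with 4 without replicate 3 of 24 months. Between 18 and 24 months it became 1 with the higher floor, from 2, and was 2 to 3 when each array was left out, and between 11 and 18 months array quality weights gave 1 in place of 0. The higher floor lies above all but 1 signal of Akr1b8 and above 2 of the 4 Akr1c3 signals of 18 months, so it removes part of their range by construction. In Brown Norway rats and in the difference between strains the count was 0 under all alternatives.

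Of 2204 alternatives for 102 single results 28 lost and 11 gained a call. Among called values 0 turned sign, and 83 values that did not pass turned sign or became 0. Akr1b7 from 6, 11 or 18 to 24 months and Akr1c3 from 6 to 24 months kept their calls under all alternatives run, though the livers of 6 months for Akr1b7 and of 24 months for Akr1c3 had no measured spread above the floor of 32. From 6 to 24 months the genes passing ranged from 3 to 7 in the steroid list, 1 to 4 in that of bile acid synthesis, 2 to 5 in that of carbonyl and aldehyde enzymes and 2 to 4 among Nrf2 targets. Akr7a2 from 6 to 24 months lost its call under 10 of its alternatives and Akr1c3 from 6 to 18 months under 13, and the cause was not tested. No paired analysis was possible because the labels give animal numbers that differ between groups, and replicate numbers were given in order of listing only. Fits limited to the groups compared do not apply to toluene averaged over 3 ages. Signals at the floor carry no order, which limits Akr1b7 before 24 months and Akr1c3 at 24 months.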
